A study of Mus musculus with 7 samples.

Results

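Pikfyve, the kinase that makes the phosphoinositide of late endosomes and lysosomes, was examined together with 9 other genes of phosphoinositide metabolism in microglia of old and young ischemic mice. The 10 genes, of 50686 in the tables, were Pikfyve with its complex partners Fig4 and Vac14, Pik3c3 and Pik3r4 of the VPS34 complex, the phosphatases Mtm1 and Inpp5d, and the kinases Pi4ka, Pip4k2a and Pip5k1a. They were selected by symbol, and the list was drawn up around Pikfyve with the comparison of old and young already known, so all differences between the ages in these 10 genes are given as a description. All 10 were counted in all 7 libraries.

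The libraries came from Bodipy+ microglia of 4 young (3 to 4 months) and 3 old (21 to 22 months) male C57BL/6 mice from Janvier. All mice had undergone a 45 min occlusion of a middle cerebral artery with reperfusion, and cells were obtained 4 days later, with no drug treatment and 1 mouse per library. Live cells were sorted with antibodies to CD11b and CD45 and with Bodipy, a dye of neutral lipids, so both ages were compared in cells that hold lipid droplets. Sham-operated mice and Bodipy- cells were not analysed here, and neither the effect of ischemia nor that of lipid loading was measured.

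Phosphoinositides are phosphorylated forms of phosphatidylinositol that mark the identity of membranes and recruit proteins to them. VPS34, encoded by Pik3c3, makes phosphatidylinositol 3-phosphate on endosomes and autophagosomes, and PIKFYVE phosphorylates that lipid further to steer lysosome size, fission and acidification. At the plasma membrane, a 4-kinase and 5-kinases supply the precursors that class I PI3K turns into PIP3 after receptor engagement, and in microglia the phosphatase SHIP1 removes it downstream of phagocytic receptors.

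Total expected counts, which RSEM estimates by dividing reads among transcripts, were 36574083 to 53002386 per library. Pairs of young libraries correlated with r = 0.979 to 0.991 over genes on the log2(CPM + 1) scale, pairs of old libraries with 0.970 to 0.987, and mixed pairs with 0.954 to 0.987. All 10 microglia markers, P2ry12 and Tmem119 among them, exceeded 1 CPM in every library, with a summed level of 21747 to 32406 CPM in young and 11176 to 25296 CPM in old mice. Old mouse 3posI stood apart, with the lowest microglia sum (11176 CPM) and a sum of 2016 CPM for 6 markers of infiltrating monocytes and macrophages, against 17.0 to 86.2 CPM in young mice and from 67.4 CPM in the other old mice. Its 7 markers of border-associated macrophages summed to 1522 CPM, against 129 to 470 CPM in young mice. Single monocyte markers were also higher in all 3 old libraries than in any young one. Ly6c2 had 9.59 to 162 CPM in old against 0.946 to 2.86 CPM in young mice, and Plac8 6.91 to 86.2 against 0.922 to 4.56 CPM. Ccr2, Chil3, Vcan and S100a4, the rest of that list, overlapped between the ages. The microglia marker Fcrls was lower in all 3 old libraries, with 1550.5 to 3089.9 against 3477 to 4212 CPM, while the other microglia markers overlapped. Of both lists edgeR called 0 markers. The endothelial marker Pecam1 was lower in all old libraries too, with 8.70 to 12.4 against 15.3 to 20.0 CPM. The other markers of endothelial cells and pericytes overlapped between the ages. The part of these cell type markers in the differences of age below was not tested. Of the T and NK cell markers Cd3e, Cd3d, Cd3g, Trac, Trbc2 and Klrb1c lay under 1 CPM in all libraries. The remaining marker, Nkg7, had 0.209 to 1.21 CPM in old and 0.0224 to 0.137 CPM in young mice without overlap. Trac, with 0.119 to 0.792 against 0 to 0.0785 CPM, did not overlap either, and the others did. Ribosomal RNA genes took 4.14% to 4.99% of the counts of young libraries, which was more than the 2.21% to 3.37% of any old library, and the part of this difference in the values below was not tested. In bulk samples, fewer cells of a type and less RNA per cell cannot be told apart.

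Several measures were compared because they answer different questions. The level as CPM, which is counts scaled to a common library size with TMM factors, reflects the reads of a gene, the effective length reflects which of its transcripts RSEM assigned those reads to, and TPM divides the reads by that length. For genes in these tables the length exceeded the effective length by 48.9 bases in every library, so an effective length that differed between libraries came from a different estimated mix of long and short transcripts. A longer mix yields more reads for the same number of transcripts.

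Pikfyve counts were higher in old mice, and so was its effective length. Pikfyve (ENSMUSG00000025949) lies on the plus strand at chr1:65186683-65278695 (GRCm38). Its level was 17.9 CPM in 14C, 17.2 CPM in 18C, 16.9 CPM in 23C and 15.2 CPM in 29C among young mice, and 26.3 CPM in 2posI, 37.0 CPM in 3posI and 29.4 CPM in 4posI among old mice. All old libraries exceeded all young ones, and the highest was 3posI, the library with the most monocyte markers. The mean level was 16.8 ± 1.13 CPM (SD, n = 4) in young and 30.9 ± 5.52 CPM (SD, n = 3) in old mice, a ratio of 1.84. On the log2 scale counts differed by 0.88 with an SE of 0.15 (adjusted p = 0.0426 in edgeR over 17559 genes). Pikfyve was the 1 gene of the 10 past the threshold in counts, where 0.803% of all genes tested passed and 0.570% passed as higher in old mice, and nothing is read from this count because the list was built around it. The call rested on all 7 libraries. Leaving out any 1 of them gave log2 differences of 0.73 to 0.98 and adjusted p of 0.0512 to 0.145 in edgeR, with 0.73 and 0.0512 without 3posI.

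The effective length of Pikfyve was 4159.95 bases in 14C, 4914 bases in 18C, 3422 bases in 23C and 4609.99 bases in 29C, against 8019.99 bases in 2posI, 6774 bases in 3posI and 7497 bases in 4posI. The ages did not overlap, and the longest estimate was in 2posI, which had the lowest count level of the old libraries. The mean was 4276 ± 648 bases (SD, n = 4) in young and 7430.4 ± 626 bases (SD, n = 3) in old mice. On the log2 scale effective length was greater by 0.81 (SE 0.14, adjusted p = 0.0427, limma, over 11768 genes with a variable length). Of these 11768 genes, 97 (0.824%) had a larger increase, while the median difference over all of them was 0.01 and 57.7% were above 0. Leaving out single libraries gave 0.70 to 0.88, and the adjusted p in limma stayed under 0.05 in 1 of 7 cases (0.0481, without 23C).

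In TPM the ages of Pikfyve overlapped. The level was 6.00 TPM in 14C, 5.05 TPM in 18C, 6.97 TPM in 23C and 4.32 TPM in 29C, and 4.01 TPM in 2posI, 6.93 TPM in 3posI and 5.58 TPM in 4posI. The lowest value was in an old and the highest in a young mouse. Means were 5.59 ± 1.15 TPM (SD, n = 4) and 5.51 ± 1.46 TPM (SD, n = 3), and the difference on the log2(TPM + 1) scale was -0.03 with an SE of 0.23. With the effective length as an offset, the log2 difference in counts fell from 0.88 to 0.09 (adjusted p = 0.865, edgeR). The higher counts of old mice were thus accompanied by a mix of transcripts that RSEM estimated as longer, and whether the mix or its estimate differed was not tested.

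**Figure D1:**
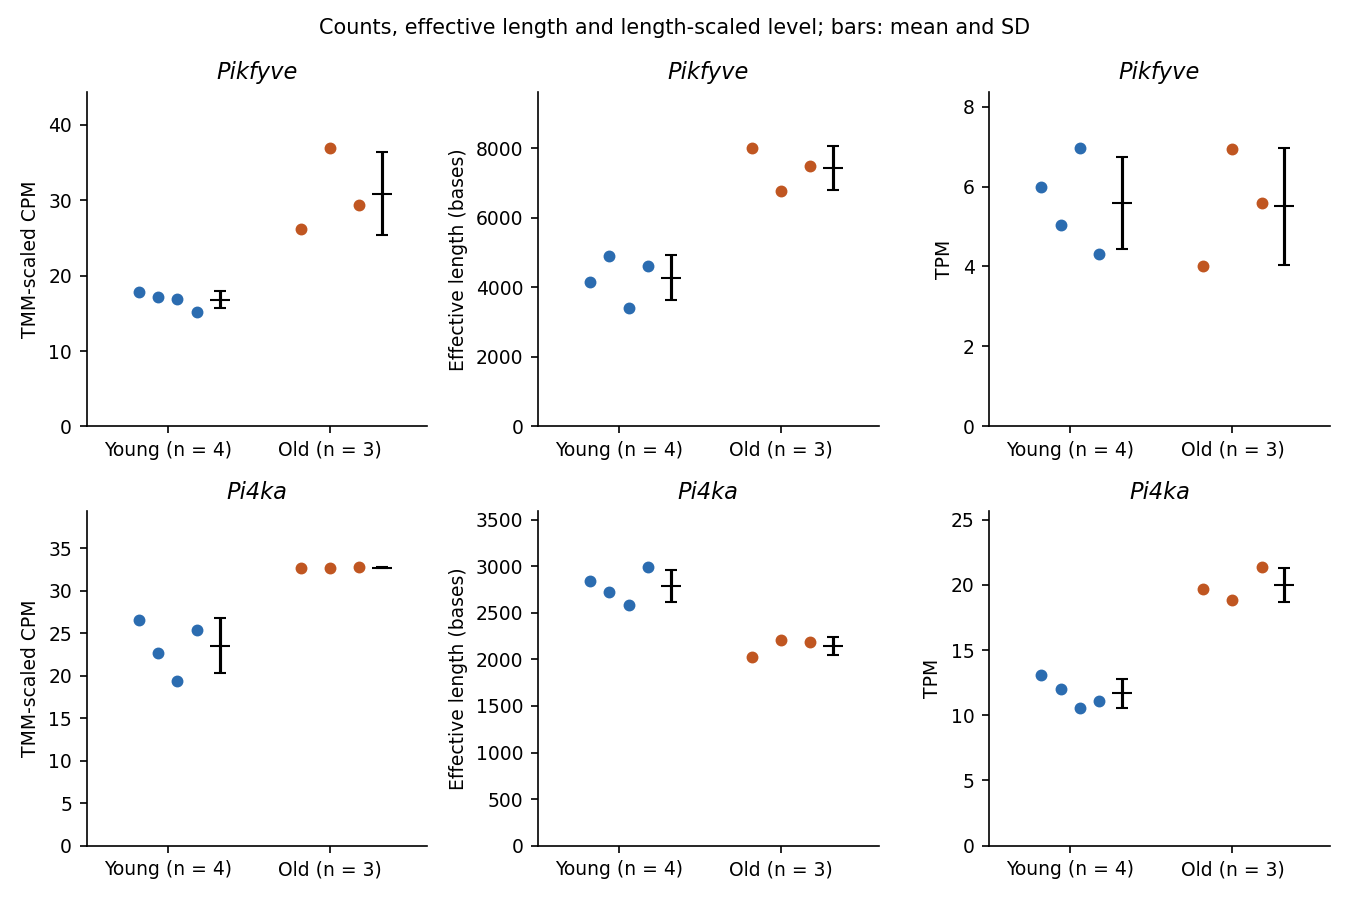
Pikfyve (top) and Pi4ka (bottom) in each library as TMM-scaled CPM, effective length in bases and TPM, all axes from 0. Dots are libraries (young blue, n = 4; old orange, n = 3) and bars the mean and SD; for Pikfyve the ages are apart in CPM and effective length and overlap in TPM, while Pi4ka lies higher in old mice in CPM and TPM and lower in effective length.

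The transcripts of Pikfyve differ mostly at their 3′ side. Of its 11 transcripts, all found in GENCODE vM21, 2 are protein coding. Pikfyve-201 has 11237 bases, 6159 of them coding and 4937 behind the coding sequence, and Pikfyve-202 has 6641 bases. The others range from 443 to 4266 bases and are annotated as retained intron, nonsense mediated decay or processed transcript. The following lines show the first and the last 60 coding bases of Pikfyve-201, because the first stretch is shared by nearly all transcripts and the last only by those that can encode the whole kinase. They are read 5′ to 3′ on the plus strand of GRCm38 (GENCODE vM21), and capitals mark the start and the stop codon. The first lies at chr1:65190328-65190387 and is held by 10 of the 11 transcripts, the last at chr1:65273699-65273758 and is held by 2 of the 11.
First coding bases of Pikfyve: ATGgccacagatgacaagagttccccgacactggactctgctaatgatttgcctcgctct
Last coding bases of Pikfyve: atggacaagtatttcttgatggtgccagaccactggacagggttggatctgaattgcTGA

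All 3 old libraries had an effective length above that of Pikfyve-202, the second-longest transcript, and no young library did. An average above the second-longest transcript needs some of the longest one, so the deposited lengths set bounds on the share of transcripts that RSEM assigned to Pikfyve-201, taking the transcript lengths of vM21. That share was at least 31.1% in 2posI, 3.96% in 3posI and 19.7% in 4posI and at most 59.1% to 70.6%. In young libraries it could have been 0, and was at most 34.9% in 14C, 41.9% in 18C, 28.1% in 23C and 39.1% in 29C. For the 2 coding transcripts together the share was at least 54.6% in 2posI, 36.7% in 3posI and 47.1% in 4posI, against an upper bound of 48.9% to 72.9% in young libraries, so the bounds of the ages overlapped. In TPM, coding transcripts amounted to at least 2.19 to 2.63 in old libraries and at most 2.94 to 3.68 in young ones. The study quantified on GENCODE m15. Of 31891 genes with a single transcript, 93.5% had the same length in vM21. The bounds describe RSEM's estimates and not molecules seen in full.

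**Figure D2:**
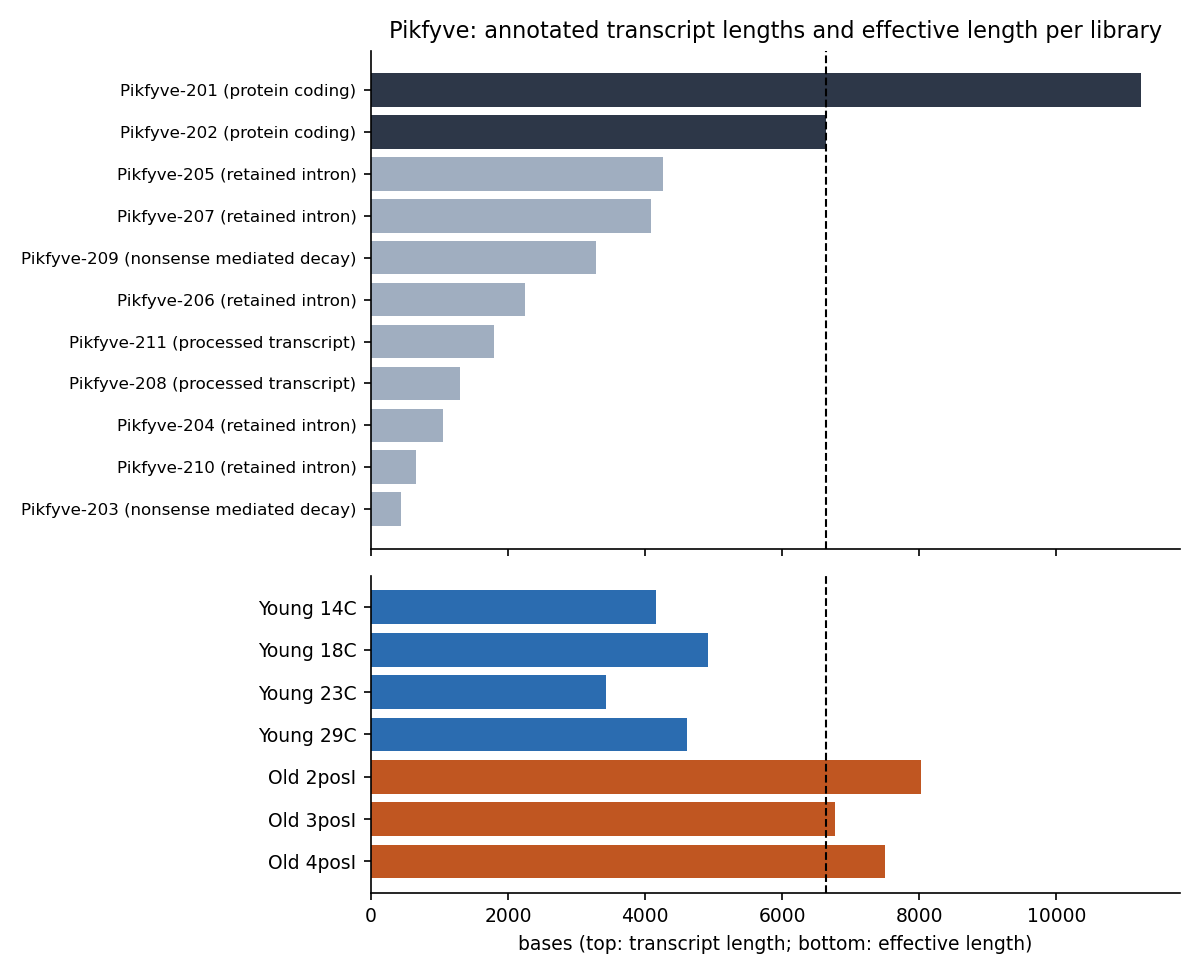
Length of the 11 annotated Pikfyve transcripts (top, protein coding dark) and effective length of Pikfyve in each library (bottom, young blue, old orange), in bases. The dashed line marks Pikfyve-202 at 6641 bases; the 3 old libraries reach beyond it and the 4 young libraries end at or before 4914 bases.

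Counts by gene length are given beside these values. Among the 3275 genes under 1000 bases of mean effective length the median log2 difference in counts was 0.12, with 58.1% above 0, and among the 5394 genes of 1000 to 2000 bases it was 0.03. Among the 573 genes with a mean effective length over 6000 bases, the median log2 difference in counts was 0.20 and 63.5% were above 0. Between 4000 and 6000 bases, where Pikfyve lies with a mean of 5628 bases, the median over 1660 genes was -0.01, with 49.0% above 0. Between 2000 and 4000 bases it was -0.12, over 6657 genes, so the medians did not rise steadily with length. The share of genes called higher in old mice in edgeR was 0.336% under 1000 bases, 0.222% from 1000 to 2000 and 0.556% from 2000 to 4000. It was 1.51% from 4000 to 6000 bases, where Pikfyve lies, and 2.62% over 6000. The part of gene length in the values of Pikfyve was not tested beyond the offset above.

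The partners that hold PIKFYVE in its complex had counts that overlapped between the ages. Vac14 (chr8:110618585-110720398) encodes the scaffold on which the complex assembles. Its level was 45.7 CPM in 14C, 30.4 CPM in 18C, 56.6 CPM in 23C and 48.4 CPM in 29C, and 48.2 CPM in 2posI, 59.6 CPM in 3posI and 43.6 CPM in 4posI. Young 18C was the lowest and old 3posI the highest. Its log2 difference in counts was 0.16 with an SE of 0.21. Fig4 (chr10:41188172-41303260), the phosphatase that reverses the reaction and also stabilizes the complex, had 23.4 to 24.3 CPM in young mice and 24.9 CPM in 2posI, 27.9 CPM in 3posI and 21.9 CPM in 4posI. The young libraries lay within 1 CPM of each other and the old ones on both sides of them. Its log2 difference in counts was 0.07 (SE 0.12). Fig4 has 1 annotated transcript, so its effective length was fixed at 3233 bases in every library and could not show a change of mix.

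Relative to Pikfyve per length, the level of Vac14 in TPM was 2.90 to 4.95 times and that of Fig4 1.46 to 2.35 times that of Pikfyve over the 7 libraries. The extremes of the Vac14 ratio, 2.90 in 18C and 4.95 in 29C, were both young. In 2posI the Vac14 ratio was 4.94, in 3posI 3.60 and in 4posI 3.69, within the young range.

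Neither gene of the VPS34 pair passed in any of the measures, although their TPM values did not overlap between the ages. Pik3r4 (chr9:105642978-105687657) encodes the regulatory subunit VPS15. Its level was 33.3 CPM in 14C, 37.9 CPM in 18C, 36.0 CPM in 23C and 37.4 CPM in 29C, and 30.6 CPM in 2posI, 31.0 CPM in 3posI and 32.6 CPM in 4posI, so the ages did not overlap. Counts differed by a log2 value of -0.20 with an SE of 0.11 (adjusted p = 0.339, edgeR). Its TPM, 12.9 to 14.3 in young mice and 12.2 to 12.4 in old mice, did not overlap either, and the difference was -0.15 (SE 0.12, adjusted p = 0.524, limma) on the log2(TPM + 1) scale.
Pik3c3 on chromosome 18 encodes VPS34 itself. It had 21.8 CPM in 14C, 20.9 CPM in 18C, 19.6 CPM in 23C and 21.7 CPM in 29C, and 18.1 CPM in 2posI, 20.3 CPM in 3posI and 19.0 CPM in 4posI, where 3posI lay above 23C. In TPM the ranges, 8.65 to 9.48 in young mice and 6.94 to 8.47 in old mice, did not overlap. Its log2 difference was -0.13 (SE 0.12) in counts and -0.20 (SE 0.14) on the log2(TPM + 1) scale (adjusted p = 0.481, limma). The ratio of Pik3r4 to Pik3c3 in TPM was 1.46 to 1.75 over the 7 libraries, with 2posI at 1.75 and the other 2 old libraries at 1.51 and 1.46, inside or at the edge of the young range of 1.46 to 1.55.

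The 2 phosphatases did not separate the ages. Inpp5d (chr1:87620312-87720507) encodes SHIP1, which removes the 5-phosphate of PIP3 in cells of the blood and immune lineages. Among the 10 genes it had by far the highest level per length, with 356 to 602 TPM over the 7 libraries. Its counts were 809 CPM in 14C, 819 CPM in 18C, 585 CPM in 23C and 729 CPM in 29C, and 588 CPM in 2posI, 552 CPM in 3posI and 684 CPM in 4posI. Old 3posI was the lowest, but young 23C lay among the old libraries. Its log2 difference in counts was -0.27 with an SE of 0.17 (adjusted p = 0.403, edgeR), and that of log2(TPM + 1) was -0.27 (SE 0.19).
Mtm1 (chrX:71210767-71315691) encodes myotubularin, which removes the 3-phosphate from endosomal lipids. Being on the X chromosome it fell outside the study's gene filter and was read from the fit with X, Y and M kept. It had 14.8 to 19.0 CPM in young mice, and 18.4 CPM in 2posI, 38.7 CPM in 3posI and 15.5 CPM in 4posI. Only 3posI, the library with the high monocyte and border-associated macrophage sums, was outside the young range. Mtm1's log2 difference in counts was 0.53 (SE 0.29) with and 0.02 without that library, and the part of other macrophages in it was not tested.

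Of the other kinases, Pi4ka differed most between the ages, and in another way than Pikfyve. Pi4ka (chr16:17280351-17406314, minus strand) encodes the 4-kinase of the plasma membrane. Its level was 26.6 CPM in 14C, 22.7 CPM in 18C, 19.3 CPM in 23C and 25.4 CPM in 29C, and 32.7 CPM in 2posI, 32.6 CPM in 3posI and 32.8 CPM in 4posI. The old libraries were nearly equal and all above the young ones. In counts the log2 difference was 0.48 with an SE of 0.14 (adjusted p = 0.129, edgeR), while DESeq2 gave 0.48 with an adjusted p of 0.0303. Of 8 alternative settings 2 passed, DESeq2 and the length offset. In a self-test on simulated counts 29.3% of the DESeq2 calls were false, against 6.4% of the edgeR calls. Those counts were drawn with the spread per gene that edgeR had estimated. The self-test therefore cannot rank the tools on these libraries, and nothing is read from it for Pi4ka.
The effective length of Pi4ka went the opposite way to that of Pikfyve. It was 2839 bases in 14C, 2722 bases in 18C, 2584 bases in 23C and 2992 bases in 29C, and 2029.5 bases in 2posI, 2203 bases in 3posI and 2188 bases in 4posI. All old libraries were shorter than all young ones, with a log2 difference of -0.38 (SE 0.06, adjusted p = 0.0343, limma), and 415 of 11768 genes (3.53%) had a larger decrease. Leaving out single libraries gave adjusted p of 0.0430 to 0.0929 in limma, under 0.05 only without 23C.
Fewer bases per transcript with more reads gave a wider gap in TPM, with 13.1 TPM in 14C, 12.02 TPM in 18C, 10.6 TPM in 23C and 11.1 TPM in 29C, and 19.7 TPM in 2posI, 18.8 TPM in 3posI and 21.4 TPM in 4posI. The ages did not overlap and the ratio of the means was 1.71. The difference on the log2(TPM + 1) scale was 0.73 (SE 0.13, adjusted p = 0.0625, limma). With the length offset the log2 difference in counts was 0.87 (adjusted p = 0.0308, edgeR).
These values are less certain than those of the other 9 genes. The expected counts of Pi4ka were whole numbers in 0 of 7 libraries, within a tolerance of 0.001, so RSEM divided its reads with other loci, whereas those of the other 9 genes were whole in all 7. Exons of Pi4ka overlap Snap29 and Tmem191c in libraries that keep no strand, and 1 of its 12 transcripts was found in vM21, so no bounds on its mix were set.

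Pip5k1a and Pip4k2a make the same bisphosphate from different precursors. Pip5k1a (chr3:95058530-95106930) had 20.2 CPM in 14C, 19.8 CPM in 18C, 18.0 CPM in 23C and 17.3 CPM in 29C, and 18.1 CPM in 2posI, 25.9 CPM in 3posI and 25.0 CPM in 4posI. The last 2 were above the young range and 2posI was within it. Its log2 difference was 0.29 (SE 0.16) in counts and -0.02 (SE 0.21) on the log2(TPM + 1) scale, since its effective length differed too. That length was 2643 to 2698 bases in 14C, 18C and 23C, 3073 bases in 29C, and 3072 to 3302 bases in old mice, so 29C alone made the ages overlap. The log2 difference in effective length was 0.21 (SE 0.06, adjusted p = 0.144, limma), and 0.26 (adjusted p = 0.0415, limma) without 29C.
Pip4k2a (chr2:18842255-18998126) was the second most abundant of the 10 genes per length, with a mean of 30.5 TPM. It had 77.2 CPM in 14C, 74.6 CPM in 18C, 52.0 CPM in 23C and 77.1 CPM in 29C, and 108 CPM in 2posI, 56.5 CPM in 3posI and 93.2 CPM in 4posI. One library of each age, 23C and 3posI, lay far below the rest of its group. In counts the log2 difference was 0.29 with an SE of 0.23, and 0.52 without 3posI.

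**Figure D3:**
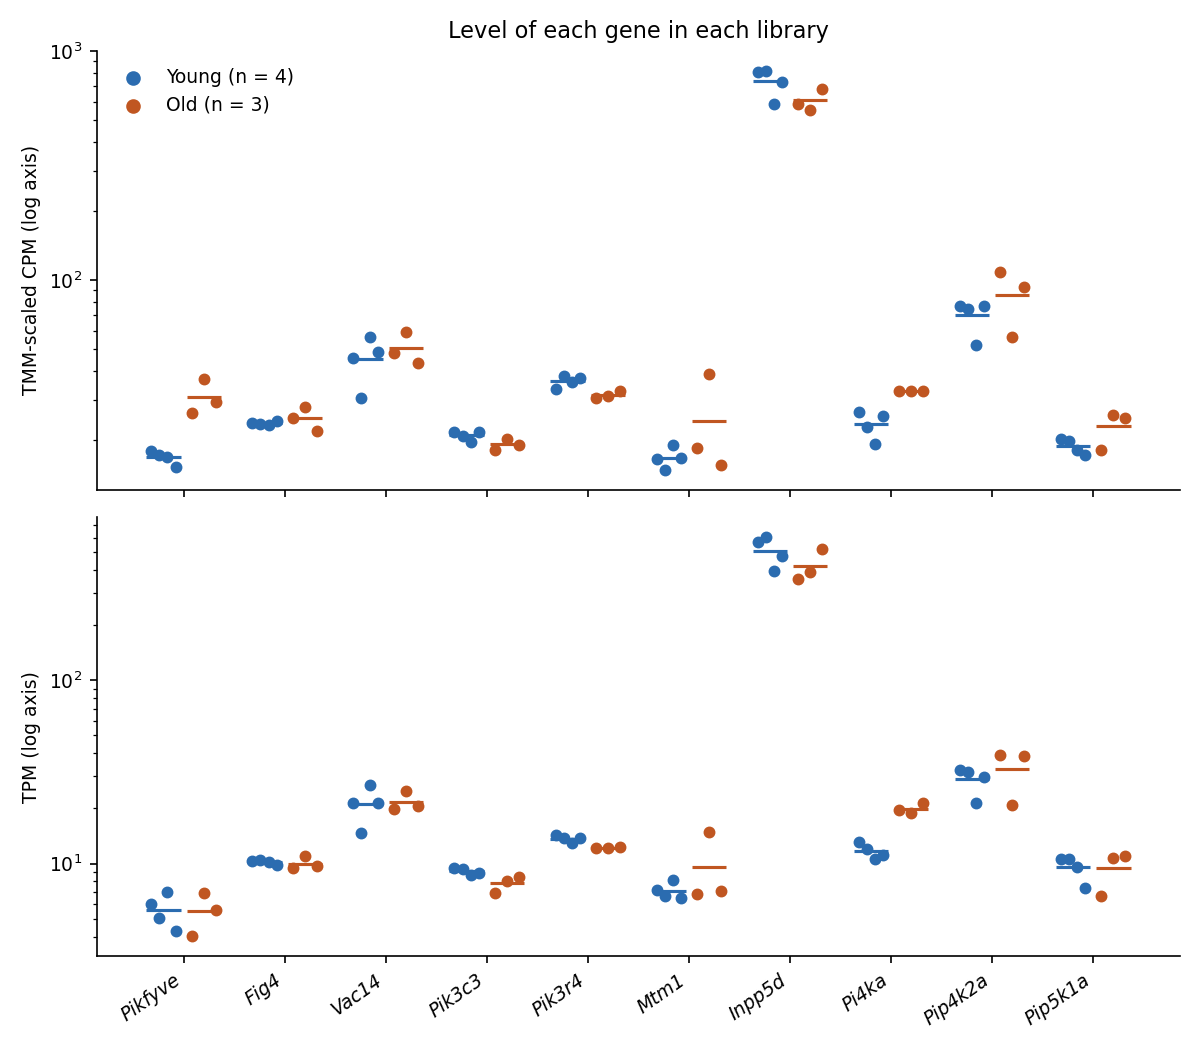
Level of the 10 genes in each library as TMM-scaled CPM (top) and TPM (bottom), both on log axes; dots are libraries (young blue, n = 4; old orange, n = 3) and lines group means. Pikfyve and Pi4ka are apart in CPM, Pi4ka alone remains higher in old mice in TPM, and Mtm1 has 1 high old library.

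Over the 10 genes, the ages did not overlap in CPM in 3 (2 higher in old, Pikfyve and Pi4ka, and 1 lower, Pik3r4), where 17.7% of all genes tested did not overlap (8.67% higher and 9.07% lower). In TPM they did not overlap in 3 (Pi4ka higher, Pik3c3 and Pik3r4 lower), against 17.5% of all genes (6.26% higher and 11.2% lower), and limma called 0 of 10, with 1 (Pi4ka) at an unadjusted p under 0.05 and 0.364% of all genes called. In effective length they did not overlap in 2, Pikfyve and Pi4ka, against 19.3% of all genes (1528 of the 11768 longer, and 742, or 6.31%, shorter), and both were called, of 9 genes with a variable length, against 3.36% of all genes (2.32% longer and 1.04% shorter). The median log2 difference of the 10 genes was 0.22 in counts and -0.02 in log2(TPM + 1), against -0.01 and -0.07 over all genes tested. These shares describe the list and nothing further is read from them.

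**Figure D4:**
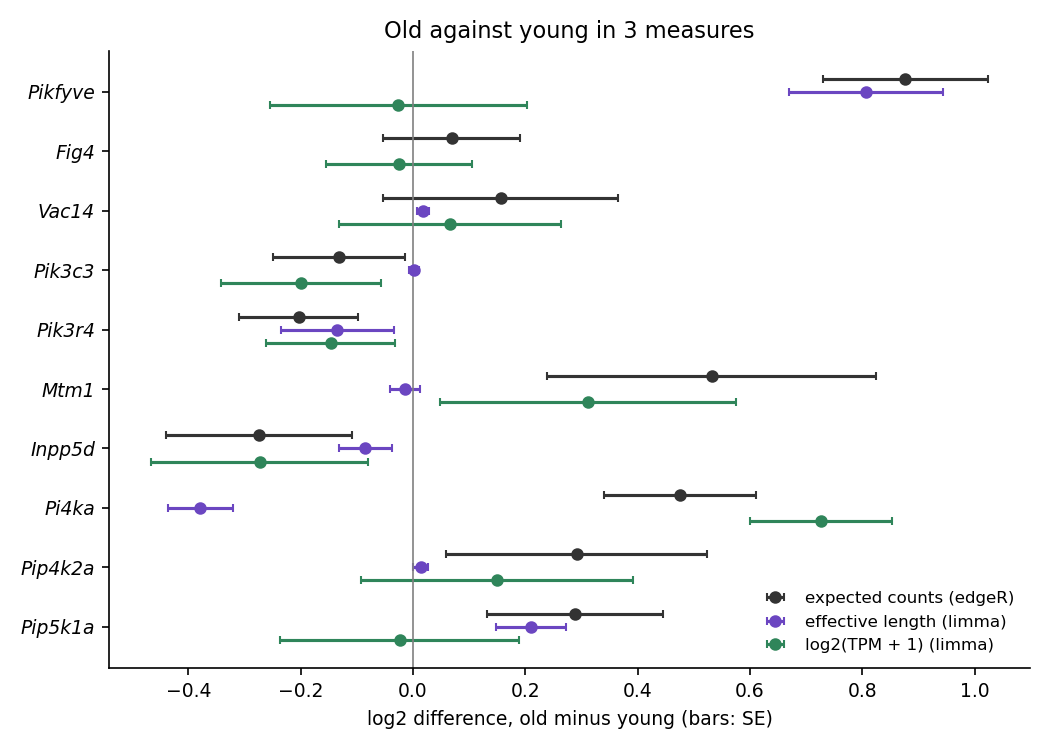
Log2 difference, old minus young, of the 10 genes in expected counts (edgeR, black), effective length (limma, purple) and log2(TPM + 1) (limma, green), with bars for 1 SE. Pikfyve has large differences in counts and length and one near 0 in TPM, Pi4ka has opposite signs in length and TPM, and Fig4 has no length value because it has 1 transcript.

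Ordered by level per length, mean TPM over the 7 libraries was 472 for Inpp5d, 30.5 for Pip4k2a, 21.4 for Vac14, 15.2 for Pi4ka, 13.1 for Pik3r4, 10.1 for Fig4, 9.51 for Pip5k1a, 8.55 for Pik3c3, 8.19 for Mtm1 and 5.55 for Pikfyve. Neighbours in this order overlapped in range except Inpp5d with Pip4k2a and Pik3r4 with Fig4. Pikfyve, with 4.01 to 6.97 TPM, was the lowest by mean but overlapped Mtm1.

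Across the 7 libraries, Pearson's r of log2 CPM with Pikfyve was 0.82 for Pi4ka, 0.80 for Pip5k1a, 0.46 for Fig4, 0.35 for Vac14, 0.12 for Pip4k2a, -0.54 for Pik3c3, -0.61 for Inpp5d and -0.85 for Pik3r4. The complex partners Fig4 and Vac14 ranked 2612 and 3053 among 8145 genes with at least 10 CPM on average. The 5 genes most like Pikfyve were Dcaf7 (r = 0.989), Dmxl1 (0.982), Ascc3 (0.981), Ccdc59 (0.981) and Map4k3 (0.978). Of these, Dmxl1 had a mean level of 13.8 CPM in young and 23.7 CPM in old mice, and Dcaf7 132 and 154 CPM. The 7 points mix both ages and differ in depth, so these r include the differences between the ages and are a description. Mtm1, outside the gene filter, has no r here.

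The rest of the pathway showed few genes past the threshold. A list of 108 other phosphoinositide genes was drawn up by function, with earlier results of these data known, and 101 of them were tested. Of these, 3 passed an adjusted p of 0.05 (edgeR), 2 higher and 1 lower in old mice, that is 2.97%, against 0.803% of all genes tested (0.570% higher and 0.233% lower). The 3 became 15 with DESeq2 and 0 to 3 without single libraries, so nothing is read from this share. Log2 differences in counts were above 0 in 41 and below 0 in 60, with a median of -0.10 against -0.01 over all genes. At an unadjusted p under 0.05 there were 26, of which 10 were higher and 16 lower, while 18.9% of all genes had such a p.

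Pik3ca (chr3:32397671-32468486), the p110alpha catalytic subunit of class I PI3K, rose from 14.9 CPM in 14C, 15.3 CPM in 18C, 16.3 CPM in 23C and 15.7 CPM in 29C to 27.2 CPM in 2posI, 28.1 CPM in 3posI and 24.8 CPM in 4posI. Both groups were tight and apart. The log2 difference in counts was 0.78 with an SE of 0.12 (adjusted p = 0.0308, edgeR). Its effective length was 4178 to 7170.0 bases in young and 3199 to 4005 bases in old mice, below all young ones. That length was not called (log2 difference -0.52, SE 0.21, adjusted p = 0.255, limma), and the 7170.0 bases were those of 14C. The TPM of Pik3ca was 2.90 to 5.20 in young mice and 8.83 to 10.4 in old mice. The difference was larger in TPM than in counts, the reverse of Pikfyve, with 1.03 on the log2(TPM + 1) scale (adjusted p = 0.0821, limma).

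Pi4kb (chr3:94974731-95006843), the 4-kinase of the Golgi, fell. It had 23.3 CPM in 14C, 25.2 CPM in 18C, 22.5 CPM in 23C and 17.3 CPM in 29C, and 10.2 CPM in 2posI, 11.1 CPM in 3posI and 11.6 CPM in 4posI. All old libraries were below all young ones, with a log2 difference in counts of -1.01 and an SE of 0.16 (adjusted p = 0.0387, edgeR). Its direction was opposite to the log2 difference of 0.48 of Pi4ka, the difference between these 2 genes being untested. Pi4kb exons overlap Zfp687, A730011C13Rik and Gm15265, and its expected counts were whole in 2 of 7 libraries. Zfp687 had 22.0 to 33.9 CPM in young and 13.1 to 23.3 CPM in old mice. The calls of Pik3ca and Pi4kb were lost without any 1 of the young libraries, without 2posI and without 4posI, while without 3posI Pik3ca passed (adjusted p = 0.0434, edgeR) and Pi4kb did not (adjusted p = 0.0512, edgeR).

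Counts below 0 in single groups stand beside all genes tested, of which 48.8% were above 0 in counts. Class I PI3K subunits had 8 of 10 log2 differences below 0 and Pik3ca as the 1 call. The other subunit above 0, Pik3cb, named here after its values were seen, had 13.5 to 17.5 CPM in young and 23.4 to 30.2 CPM in old mice without overlap (0.81, SE 0.15, adjusted p = 0.0524, edgeR). The adaptor Pik3ap1, the most abundant of them, had 180 to 217 CPM in young and 145 to 173 CPM in old mice without overlap (log2 difference -0.33, SE 0.12, adjusted p = 0.199, edgeR). Of the VPS34 partners 4 of 5 were below 0. Atg14, which directs VPS34 to autophagosomes, had 21.9 to 30.2 CPM in young and 13.8 to 21.5 CPM in old mice (-0.47, SE 0.19, adjusted p = 0.225, edgeR), and Becn1 overlapped between the ages. Of the myotubularins 9 of 12 were below 0, with Mtmr12 at 25.5 to 30.9 CPM in young and 16.2 to 21.5 CPM in old mice (-0.59, SE 0.14, adjusted p = 0.0906, edgeR) and Mtmr6 overlapping. Apart from Pik3ca, none of the genes named for these groups passed.

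Among the phosphatases outside the 10 genes, Inppl1, which encodes SHIP2, the relative of SHIP1, had 43.1 to 64.9 CPM in young and 33.7 to 39.3 CPM in old mice (-0.50, SE 0.16, adjusted p = 0.163, edgeR). Tmem55b, a lysosomal 4-phosphatase, had 111 to 161 CPM in young and 87.3 to 103 CPM in old mice (-0.62, SE 0.16, adjusted p = 0.0969, edgeR). Inpp5k overlapped between the ages at 47.9 to 65.5 CPM. Expected counts of Tmem55b, Becn1 and Pik3c2a were whole in 0 of 7 libraries and those of Inppl1 and Pik3cb in 1 of 7, so RSEM divided their reads with other loci and these levels are less certain. Exons of Inppl1 also overlap Gm10602 and Phox2a.

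Akt1, a kinase that binds PIP3, had 64.9 to 99.2 CPM in young and 95.8 to 113 CPM in old mice and did not pass (log2 difference 0.30, SE 0.16). Among effectors of endosomal phosphoinositides 0 of 15 genes passed in edgeR, where 0.803% of all genes tested passed. An unadjusted p under 0.05 was found in 3 of them, where 18.9% of all genes tested had such a p. Hgs, an ESCRT protein that binds phosphatidylinositol 3-phosphate, had 63.4 to 72.9 CPM in young and 42.8 to 56.4 CPM in old mice (-0.49, SE 0.13, adjusted p = 0.107, edgeR), and Snx3 overlapped. Phospholipases C had 9 of 13 below 0 and 0 calls in edgeR, with 2 at an unadjusted p under 0.05, beside the same 18.9% of all genes. Plcb3 had 54.6 to 67.9 CPM in young and 40.8 to 46.3 CPM in old mice (-0.49, SE 0.12, adjusted p = 0.0931, edgeR), and Plcg2, which acts in signalling from microglial TREM2, had 189 to 208 CPM in young and 179 to 187 CPM in old mice (-0.14, SE 0.11). Of the lipid transfer proteins, Pitpnm1 had 40.3 to 53.9 CPM in young and 21.6 to 35.4 CPM in old mice (-0.65, SE 0.18, adjusted p = 0.125, edgeR), and Pitpna had 49.4 to 119 and 119 to 194 CPM, with overlap at the edge. Among the remaining kinases, Pik3c2a had 10.1 to 14.3 CPM in young and 14.5 to 16.0 CPM in old mice (0.33, SE 0.16), Pip4k2b 3.18 to 4.85 and 5.27 to 6.11 CPM (0.50, SE 0.23), and Pip5k1c overlapped.

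**Figure D5:**
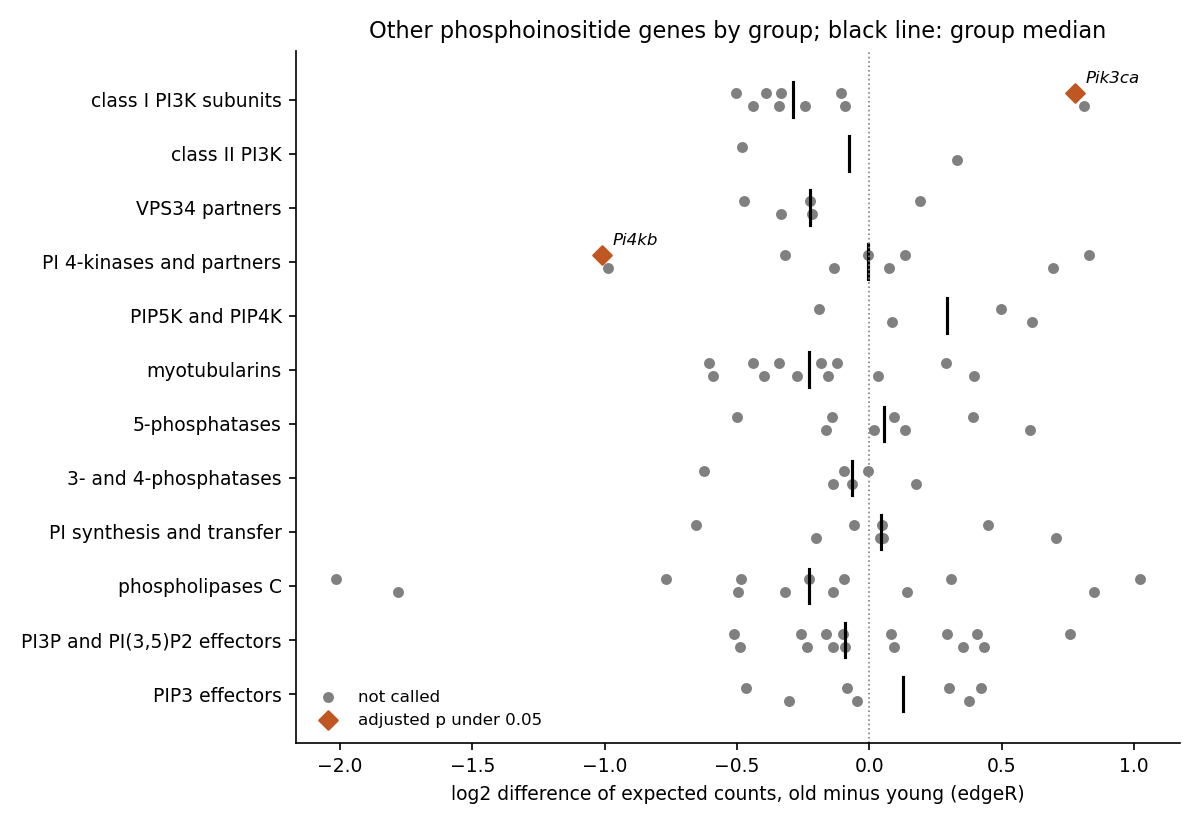
Log2 difference of expected counts, old minus young (edgeR), of other phosphoinositide genes in 12 groups; dots are genes, orange diamonds genes with an adjusted p under 0.05 and black lines medians over all tested genes of a group, including 2 genes not drawn. The diamonds are Pik3ca at 0.78 and Pi4kb at -1.01, and class I PI3K, VPS34 partners, myotubularins and phospholipases C have medians of -0.29 to -0.22.

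A change of effective length was also seen outside the 10 genes. Of 90 other phosphoinositide genes with a variable length, 5 passed in limma, where 3.36% of all genes passed, and they are named here after their values were seen. The 3.36% covers genes of all levels. Among genes with a mean of at least 10 CPM limma called 699, of which 8 were listed, so nothing is read from these shares. Pik3cb, the p110beta subunit, had 3459.7 to 3695 bases in young and 4709 to 5216 bases in old mice, with a log2 difference of 0.49. Efr3a, which anchors PI4KA at the plasma membrane, had 2492 to 2860 bases in young and 3599 to 4013 bases in old mice (0.48), while its counts overlapped at 73.0 to 94.7 CPM. The TPM of Efr3a was 38.9 to 49.5 in young mice and 28.3 to 32.0 in old mice without overlap (-0.57 on the log2(TPM + 1) scale, adjusted p = 0.0821, limma), and with the length offset its log2 difference in counts was -0.48 (adjusted p = 0.136, edgeR). Plekha2 was also longer in old mice (0.26). Expected counts of Plekha2 were whole in 0 of 7 libraries, those of Pik3cb in 1 and those of Efr3a in 5. RSEM thus divided reads of these genes with other loci, and their values are less certain. Pitpnm1 went from 2317 to 2569 bases in young to 1218 to 1566 bases in old mice (-0.77), and Plcl1 was shorter too (-0.31). With the length offset the log2 difference of Pitpnm1 in counts was 0.12, so its lower count was matched by its shorter length, as the higher count of Pikfyve was by its longer one.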

How the data were processed

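Expected counts, TPM and effective lengths of 50686 genes were deposited for 7 libraries, 1 mouse each. The authors made the expected counts and TPM with RSEM on GENCODE m15, after quality control (FastQC 0.11.5), skewer trimming and STAR alignment against GRCm38. For STAR and RSEM, versions were not given in the sources used here. Libraries were non-stranded Smart-seq2 of polyA RNA. The labels name no molecular identifiers, so PCR copies may be counted as separate reads.

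Expected counts were rounded. As in the study's methods, 18173 genes whose expected count exceeded 10 somewhere were kept, and 614 of these on X, Y and M were left out, leaving 17559. Annotation was GENCODE vM21 (224 identifiers absent). In R 4.3.3, edgeR 4.0.16 gave TMM factors (0.952 to 1.05) and the quasi-likelihood test with age as the only term. limma 3.58.1 tested log2(TPM + 1) and log2 effective length. Adjustment was by Benjamini-Hochberg over all genes. The alternatives were limma-voom (the study's test), DESeq2 1.42.0, other factors, filters and pseudocount, a length offset, and each library left out. The self-test on simulated counts of 17559 genes, 200 changed, recovered 86% of 4-fold and 31% of 2-fold changes with edgeR. In it 6.4% of the edgeR calls and 29.3% of the DESeq2 calls were false. The counts were drawn with the spread per gene that edgeR had estimated, so these shares hold for that setting only.

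The members and gene lists were chosen with earlier results of these data known. Named were the 10 genes, in each group of the pathway list the most abundant gene and the one with the smallest p, every gene of that list past an adjusted p of 0.05, and the 5 genes most like Pikfyve. Of these, 2 genes of the pathway list are not reported here, but are in its counts and medians. Labels name PureLink and the methods PicoPure for extraction.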

Additional observations from a re-analysis of the deposited data

Results flagged for a closer look

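Among 52 groups of 4 young libraries examined over the named genes, 5 had 1 library far from the other 3, where about 1 in 20 groups, or 2.6, would by chance. The values are the gap of that library to its nearest neighbour divided by the range of the group, which had to exceed the 95% critical value of Dixon. Young 23C was low for Pip4k2a, with 52.0 CPM against 74.6 to 77.2 CPM (0.895), and for Inpp5k, with 47.9 CPM against 59.8 to 62.1 CPM (0.841). Young 29C was low for Hgs, with 63.4 CPM against 71.4 to 72.9 CPM (0.847). It had the longest effective length of Pip5k1a, 3073 bases against 2643 to 2698 bases (0.872), and the shortest of Pik3c3, 3186 bases against 3205 to 3206 bases (0.939), a difference of small size.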

How the results depend on the processing

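The log2 difference of Pikfyve in counts was 0.84 to 0.89 and passed under limma-voom, DESeq2, both other factors, the other filters and with X, Y and M kept. It was 0.0852 with the length offset and, leaving out single libraries, 0.73 to 0.98 and never past the threshold. Without single libraries its effective length gave 0.70 to 0.88 and its TPM -0.18 to 0.15. The number of genes called in counts, 141 (100 higher), was 1399 with DESeq2 (744 higher), 213 with the length offset (131 higher), 288 without a filter (157 higher) and 1 to 159 without single libraries. Other listed genes called, 3, were 15 with DESeq2, 5 without a filter, 5 with filterByExpr and 0 to 3 without single libraries. In TPM 64 calls became 16 without a filter and 12 to 208 without single libraries. In effective length 395 became 699 among genes of at least 10 CPM and 98 to 197 without single libraries, and 5 listed genes became 8 and 1 to 3. Signs reversed for some genes, among them Pitpnm1 (-0.65) and Pik3c2a (0.33) with the length offset. Efr3a had 0.0039 with DESeq2, 0.0041 with RLE factors, 0.0033 with filterByExpr and -0.0813 to 0.0963 without single libraries. With the length offset Pip5k1c had -0.0296, Pik3c2a -0.11 and Pitpnm1 0.12. Without single libraries the ranges were -0.0708 to 0.23 for Pip5k1c and -0.0204 to 0.15 for Fig4 in counts, -0.0858 to 0.0136 for Fig4, -0.0897 to 0.19 for Vac14, -0.0212 to 0.49 for Mtm1 and -0.14 to 0.18 for Pip5k1a in TPM, and -0.00021 to 0.0028 for Pik3c3 and -0.027 to 0.0093 for Mtm1 in effective length. The cause was not tested. No paired analysis was possible because the labels number no replicates and the old and young libraries come from different mice.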

Other observations

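On the log2(TPM + 1) scale limma called 0 of the 101 other phosphoinositide genes tested, and 34 (33.7%) had an unadjusted p under 0.05, against 18.5% of all genes tested. Of the 34, 28 were lower and 6 higher in old mice, and over the 101 genes 28 differences were above 0 with a median of -0.18, against -0.07 over all 17559 genes, of which 39.2% were above 0. The 18.5% covers genes of all levels and was not split by direction. The list was also chosen with earlier results of these data known, so nothing is read from these shares.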
